A study of Mus musculus with 35 samples.

Results

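The mitosis genes are a list of 42 mouse genes whose products run cell division, chosen by symbol. Where a symbol had several probe sets, the brightest by its mean across the 35 arrays of the series was used. A probe set naming the gene alone was found for 41 of the 42, out of 18193 genes measured in all, and Ccnb1 was not analysed here. All 41 passed the filter on dim genes in both fits described below.

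All cells came from male C57BL/6J mice aged 8 weeks and were isolated by fluorescence-activated sorting with antibodies, and each RNA sample was hybridised to an Affymetrix array. From bone marrow the study sorted inflammatory monocytes (2 arrays), SatM, a monocyte that the labels tie to fibrosis (2 arrays), common monocyte progenitors or cMoP (4 arrays), the progenitor of SatM called SMP (4 arrays), granulocyte-monocyte progenitors or GMP (1 array) and monocyte/macrophage-dendritic cell progenitors or MDP (1 array). Of the cMoP and SMP arrays, 2 each carry "WT" in their titles, and the labels give no other genotype. From spleen it sorted basophils, eosinophils and neutrophils (2 arrays each). These 20 arrays are called the lineage arrays. A panel of 15 further arrays holds 1 array per sort and tissue. It covers SatM of 4 tissues (spleen, blood, lung and bone marrow). It also covers F4/80-negative Mac1-positive Ly6C-negative cells without Msr1 and Ceacam1 (called marker-negative here; spleen, marrow, blood) and cells with dull Msr1 and Ceacam1 (marrow, lung). The remaining panel arrays are other Ly6C-negative monocytes (spleen, blood), M2-like resident macrophages (spleen, marrow) and 2 sorts of resident lung macrophages. The lung samples carry "BAL" in their titles. The labels do not say whether replicates came from separate mice or from pools, so p-values measure only the spread between these samples, which may be technical. The number of arrays limits the precision of every value.

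Mitosis is driven by cyclin-dependent kinase 1 with its A- and B-type cyclins, and by the Polo-like and Aurora kinases that build the spindle. The spindle checkpoint holds the cell until every kinetochore is attached, after which the anaphase-promoting complex removes securin and the cyclins, and the central spindle and cleavage furrow split the cell. Transcripts of these genes accumulate in the later part of the cell cycle of dividing cells and are low in resting cells, so in the blood system they are typical of progenitors rather than of circulating monocytes and granulocytes.

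Many promoters of this class carry CCAAT boxes and a CHR element, through which the MuvB complex acts. The CHR was searched as TTTGAA, and the alternative spelling, which is TTCGAA, was counted as a match as well. RefSeq promoter windows (GRCm38.p6, 250 bases before to 50 after a start) were matched by symbol for 34 of the 42 listed genes, giving 37 windows. A CHR match on either strand was present in 28 of the 37 windows (75.7%), against 19.2% of all 32851 windows of that length. A CCAAT pentamer on either strand was present in 28 of the 37 (75.7%), against 37.4% of all windows. Both were present in 25 of the 37 (67.6%), against 7.5% of all windows. For comparison, 10 of 49 windows of DNA replication genes held a CHR match (20.4%) and 5 held both (10.2%). The members' 39 CHR matches, counted per window, had a median position of 15 bases before the start. Windows of Ect2, Prc1 and Bub3 overlap, so their shared sites are counted in each window. A match describes letters only, and no binding was measured here. The 6 promoters below are shown because 5 of these genes fell steeply from progenitors to monocytes and the sixth, Pttg1, did not follow the others. Each runs from 170 bases before to 30 bases after the start, 5′ to 3′ on the gene's strand, with capitals marking CHR and CCAAT matches on either strand.
Cdk1 (chr10:69352883-69353082, minus strand): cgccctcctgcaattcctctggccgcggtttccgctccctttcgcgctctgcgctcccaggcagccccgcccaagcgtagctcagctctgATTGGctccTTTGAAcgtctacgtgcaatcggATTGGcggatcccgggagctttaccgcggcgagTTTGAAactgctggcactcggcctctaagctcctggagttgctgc
Ccnb2 (chr9:70421525-70421724, minus strand): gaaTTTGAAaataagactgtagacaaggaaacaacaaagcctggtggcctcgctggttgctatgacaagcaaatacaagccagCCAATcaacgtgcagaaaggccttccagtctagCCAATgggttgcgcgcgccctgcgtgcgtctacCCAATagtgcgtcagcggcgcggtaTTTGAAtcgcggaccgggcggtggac
Ube2c (chr2:164769759-164769958, plus strand): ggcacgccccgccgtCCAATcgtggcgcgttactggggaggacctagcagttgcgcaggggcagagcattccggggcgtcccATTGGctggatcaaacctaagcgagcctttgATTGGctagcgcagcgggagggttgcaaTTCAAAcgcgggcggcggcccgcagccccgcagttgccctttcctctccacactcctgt
Prc1 (chr7:80294281-80294480, plus strand): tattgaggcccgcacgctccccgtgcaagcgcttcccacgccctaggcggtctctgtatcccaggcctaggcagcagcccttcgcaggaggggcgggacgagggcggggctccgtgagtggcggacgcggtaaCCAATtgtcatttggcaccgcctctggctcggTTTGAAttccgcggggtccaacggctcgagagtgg
Mki67 (chr7:135716350-135716549, minus strand): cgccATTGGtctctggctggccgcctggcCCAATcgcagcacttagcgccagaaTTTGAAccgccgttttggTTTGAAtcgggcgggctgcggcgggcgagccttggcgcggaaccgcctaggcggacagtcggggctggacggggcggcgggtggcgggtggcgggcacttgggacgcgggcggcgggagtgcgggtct
Pttg1 (chr11:43425952-43426151, minus strand): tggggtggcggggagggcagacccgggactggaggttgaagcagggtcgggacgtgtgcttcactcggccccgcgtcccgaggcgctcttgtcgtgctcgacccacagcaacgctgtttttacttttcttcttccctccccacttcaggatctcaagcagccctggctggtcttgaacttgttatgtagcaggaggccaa
The Cdk1, Ccnb2 and Mki67 windows each hold a pair of CHR matches, while the Pttg1 stretch holds no match to either motif. The windows of Nuf2, Nusap1, Mad2l1 and Ncaph also held no match. From cMoP to inflammatory monocytes these genes differed by -5.65, -5.99, -4.45 and -4.82, all called lower. Each Bub3 window held 1 CHR and 2 CCAAT matches, and Bub3 was not called in that step (-0.49). Whether matches go with the fall was not tested.

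Levels are the authors' deposited expression values, read as log2. They have a floor of 2.3 and 46.5% to 49.5% of the probe sets of an array lie within 0.01 of it, so a gene at the floor has only an upper bound. Array medians ran from 2.31 to 2.39. Probe sets of different genes differ in sensitivity, and levels are compared only between samples. In bulk samples, fewer dividing cells and less RNA per cell cannot be told apart.

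The sorts were checked against marker lists. Inflammatory monocyte, SatM and cMoP arrays had high monocyte markers, with summed levels over 11 measured genes of 124.2 to 126.0, 112.3 to 112.9 and 112.4 to 117.8. The 4 SMP arrays, labelled as a monocyte progenitor, had a monocyte sum of only 58.6 to 64.9 and means of 11.59 to 12 for the basophil and mast cell markers, against 2.98 to 3.16 in cMoP. The 3 marker-negative panel arrays, labelled as monocytes, went against that label. Their 7 natural killer cell markers summed to 76.3 to 85.2, against 17.5 to 38.1 on every other array, and Cd14 was at the floor in all 3. The panel SatM array from marrow also stood apart from the 2 marrow SatM arrays of the lineage set. Its 6 early granulocyte markers, such as Mpo and Elane, had a mean of 12.37, against 3.59 and 4.40. Lineage results for SatM are also given with it added, and panel fits also without it. B cell and plasma cell markers were high on several panel arrays. Summed over 13 genes, they reached 100.6 to 102.2 in M2-like macrophages and 75.7 to 89.6 in other Ly6C-negative monocytes. They ran from 43.4 to 97.8 in panel SatM and from 38.4 to 90.8 in marker-negative cells. In lineage inflammatory monocytes and SatM they were 44.5 to 47.9 and 45.2 to 46.0. Their part in the panel results was not tested.

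Over the 35 arrays the mitosis genes largely moved as a block. The mean level over the 41 genes was highest in basophils (9.86 and 10.26), in the marrow Msr1-dull Ceacam1-dull array of the panel (9.87) and in MDP (9.85). It was 8.54 to 9.40 in cMoP, 8.99 in GMP, 8.50 and 8.96 in eosinophils and 7.78 to 8.48 in SMP. It was lower in neutrophils (5.86 and 7.16), inflammatory monocytes (5.27 and 4.97) and SatM (4.61 and 4.80). The lowest arrays were the blood arrays of other Ly6C-negative monocytes (3.70, with 14 of 41 genes at the floor) and of SatM (3.84, with 15 of 41). GMP and 1 of the 2 eosinophil arrays lay within the cMoP range, while every SMP array (at most 8.48) lay just below every cMoP and eosinophil array and below GMP. Neutrophils lay apart from all of these, and their 2 arrays differed by more than the SatM and inflammatory monocyte arrays did between them.

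**Figure D1:**
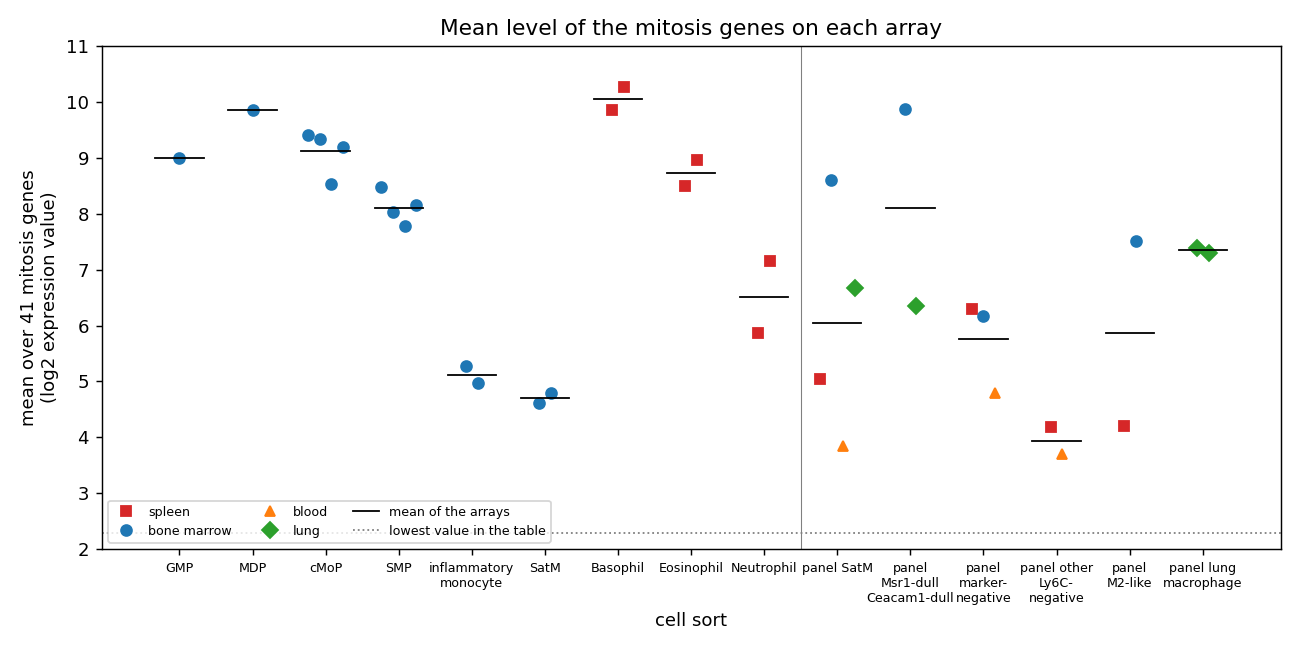
Mean level over the 41 mitosis genes (log2 expression value, vertical axis) on each of the 35 arrays, by cell sort (horizontal axis), with marker shape and colour giving the tissue, short lines the mean of a sort's arrays and a dotted line the floor. Basophil arrays (9.86 and 10.26) and cMoP arrays (8.54 to 9.40) sit above inflammatory monocytes (5.27 and 4.97) and SatM (4.61 and 4.80). Panel arrays of several sorts spread widely by tissue.

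Pairwise correlations between members over the 35 arrays had a median r of 0.87 over 820 pairs, ranging from -0.40 to 0.98. These points share arrays, normalisation and floor, so r is a description. The level of 32 of the 41 members correlated above 0.9 with the mean of the others. The members that followed least were Pttg1 (r = -0.26), which encodes securin, the inhibitor of separase, Bub3 (r = 0.63), a checkpoint protein, and Incenp (r = 0.81), the scaffold of the chromosomal passenger complex. On the probe set used, securin's transcript was high on every array, from 9.23 to 12.51. Each of these r values rests on the brightest probe set of its gene. Other probe sets correlated with it at 0.53 and 0.73 for Pttg1, 0.14 to 0.47 for Bub3 and 0.23 to 0.94 for Incenp. Of 18150 genes outside the list, the most alike over the 35 arrays were Spag5 (r = 0.983), Shcbp1 (0.976), Sgo2a (0.973), Kifc1 (0.973), Ncapg (0.97), Cip2a (0.969), Clspn (0.968), Sgo1 (0.968), Prr11 (0.963), Ckap2 (0.962), Pbk (0.961), Esco2 (0.96), Asf1b (0.96), Neil3 (0.959) and Ccnf (0.958).

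**Figure D2:**
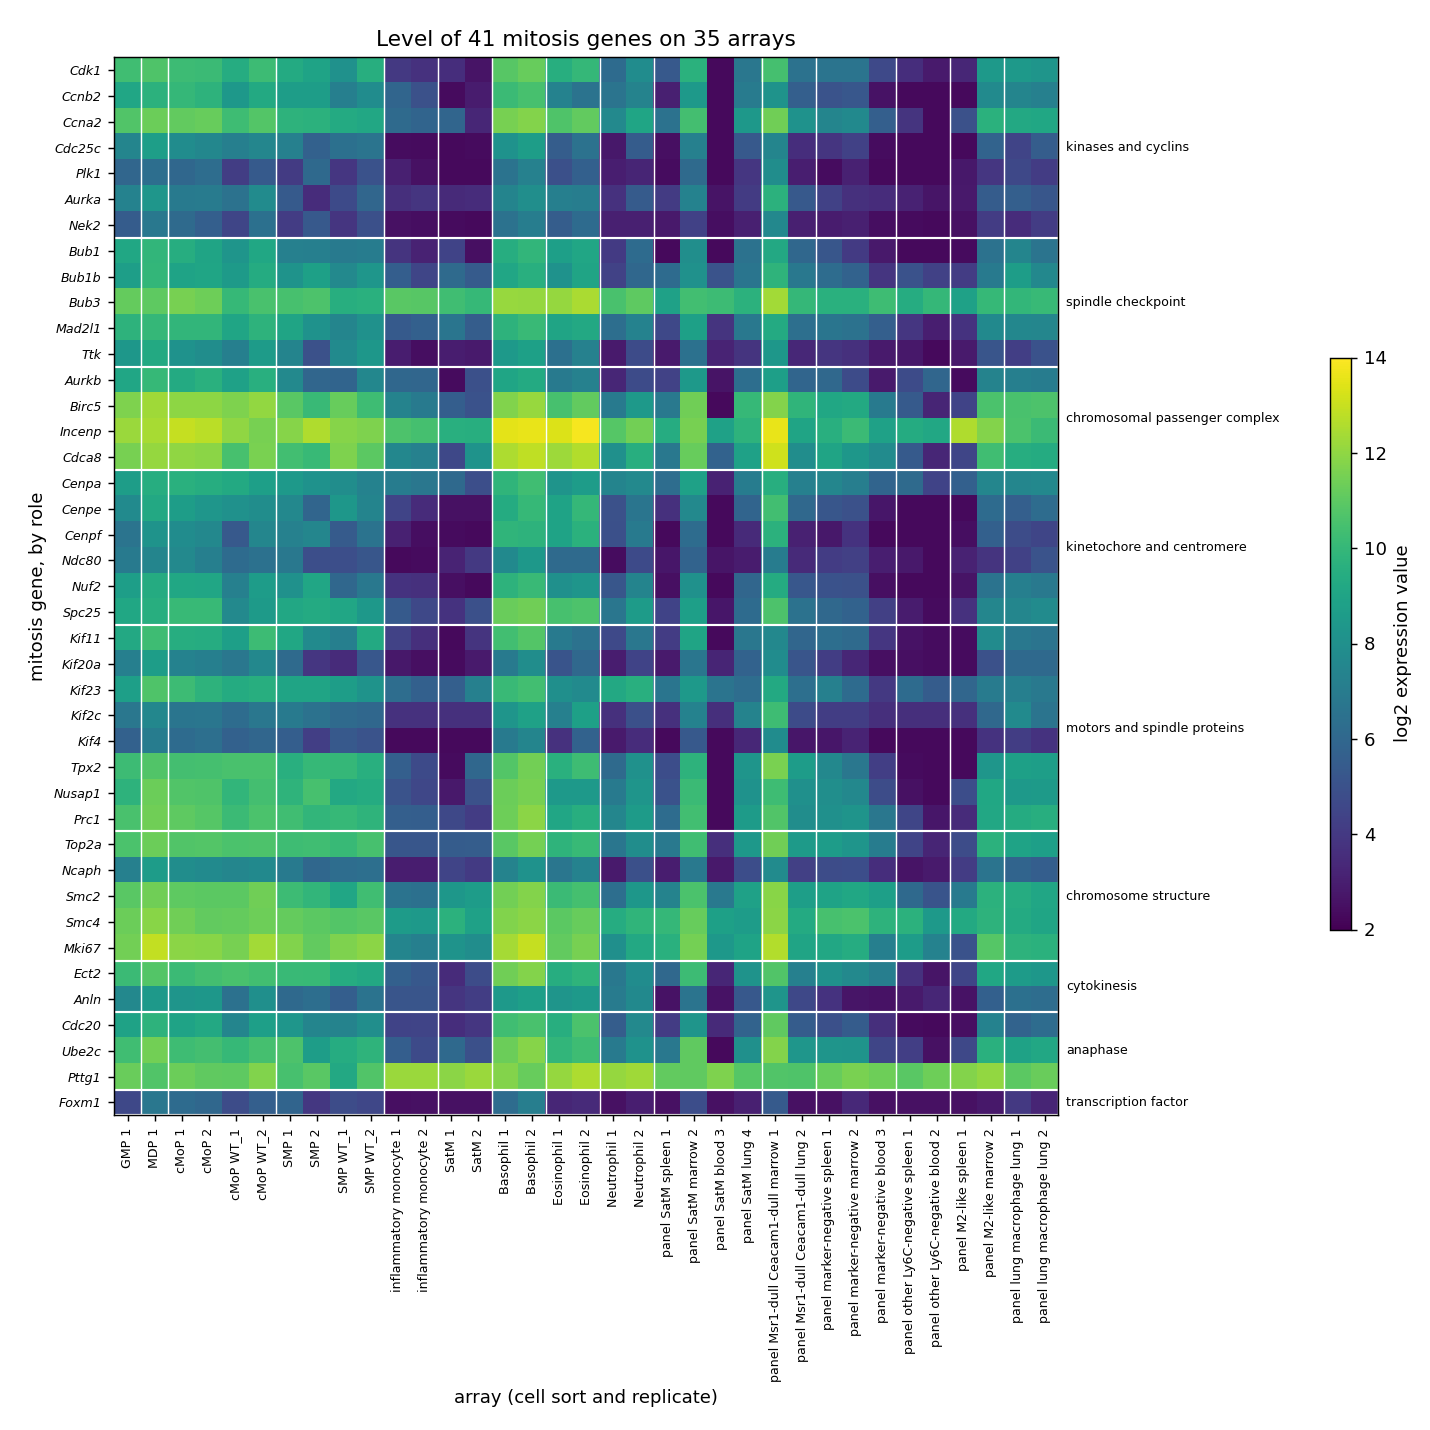
Level (log2 expression value, colour) of each of the 41 mitosis genes (rows, grouped by role) on each of the 35 arrays (columns, grouped by sort). Most rows are bright in progenitors, basophils and eosinophils and dark in monocytes and the blood arrays, while Pttg1 stays between 9.23 and 12.51 throughout.

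The step from cMoP, the progenitor of classical monocytes, to inflammatory monocytes was tested over the 20 lineage arrays with limma. A gene was called when its Benjamini-Hochberg adjusted p over all 12077 genes was under 0.05 and its difference at least 1 on the log2 scale. Mitosis genes fell in every role: 39 of 41 were called lower and 0 higher, where 8.25% and 6.62% of all genes tested were called lower and higher. The median difference of the 41 was -4.49, against -0.01 over all genes. Differences are fitted with a term for the WT-titled arrays, so they are relative to the numbered progenitors and can differ from the plain difference of group means.

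Among the kinases and cyclins all 7 measured members were called lower. Cdk1, the kinase that drives entry into mitosis, had levels of 10.24, 10.20, 9.43 and 10.22 in cMoP and 3.98 and 3.70 in inflammatory monocytes. The monocyte arrays lay far below every progenitor array, with a fitted difference of -6.38 ± 0.51 (standard error) and an adjusted p of 3.37e-06. Ccnb2, a B-type cyclin, was at 10, 9.78, 8.39 and 9.29 in cMoP and 5.92 and 4.97 in monocytes, a difference of -4.47 ± 0.40 (adjusted p 7.71e-06). Plk1, the Polo-like kinase, was dim throughout, at 6.02, 6.31, 4.20 and 5.41 against 3.06 and 2.52, and fell by 3.20 ± 0.60 (adjusted p 0.00243). Aurka and Aurkb, the Aurora kinases of the centrosome and of the centromere, fell by 3.04 and 3.44. Both those calls were lost without inflammatory monocyte array 1, with adjusted p at most 0.0573 over the arrays left out in turn, and Aurkb's also without array 2.

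Of the 5 spindle checkpoint genes, 4 were called lower. Bub1, a kinase that recruits checkpoint proteins to kinetochores, had 9.48, 9.02, 8.27 and 9.14 in cMoP and 3.81 and 3.14 in monocytes, with a wide gap between the groups. It fell by 5.69 ± 0.63 (adjusted p 4.67e-05). Bub3, which also has roles outside mitosis, was at 11.55, 11.34, 10.03 and 10.54 in cMoP and 10.95 and 10.89 in monocytes, within the progenitor range, and was not called (-0.49, adjusted p 0.125).

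All 4 genes of the chromosomal passenger complex and all 6 kinetochore and centromere genes were called lower. Nuf2, a subunit of the Ndc80 complex that binds microtubules, had 9.13, 9.11, 7.24 and 8.62 in cMoP against 3.76 and 3.67, a fall of 5.65 ± 0.61 (adjusted p 3.86e-05). Its partner Ndc80 was near the floor in monocytes (2.3 and 2.35, against 7.64, 7.20, 6.21 and 6.46) and fell by 5.03 ± 0.65 (adjusted p 0.000159). Cenpa, the histone variant that marks centromeres, fell less, by 2.68 ± 0.35, and remained at 7.05 and 6.75 in monocytes. The Cdca8 call was lost without inflammatory monocyte array 2 (adjusted p 0.0583).

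All 8 motor and spindle genes were called lower. Nusap1, a spindle-associated microtubule binder, had 10.76, 10.70, 9.89 and 10.43 in cMoP and 5.05 and 4.56 in monocytes, a fall of 5.99 ± 0.53 (adjusted p 7.58e-06). Kif11, the motor that separates spindle poles, had 9.46, 9.42, 8.76 and 10.23 against 4.37 and 3.64 and fell by 5.50 ± 0.77 (adjusted p 0.000299). The chromokinesin Kif4 was at the floor on both monocyte arrays and at 5.71 to 6.37 in cMoP, which makes it at least 13.5-fold lower. Top2a, the topoisomerase that disentangles sister chromatids, had 10.74, 10.77, 10.62 and 10.67 in cMoP and 5.23 on both monocyte arrays with little spread in either group, and fell by 5.50 ± 0.28 (adjusted p 7.66e-08). All 5 chromosome structure genes, both cytokinesis genes and Foxm1, the transcription factor of the late cell cycle, were also called lower, and Mki67, the gene of the Ki-67 antigen, fell by 4.49 ± 0.36 from 11.52 to 12.34 to 7.46 and 7.16. Of the anaphase genes, Ube2c, the ubiquitin-conjugating enzyme of the anaphase-promoting complex, fell by 5.20 ± 0.56, while Pttg1 was at 12.21 and 12.18 in monocytes and 11.01 to 11.73 in cMoP, above every progenitor array but not called (0.78, adjusted p 0.255).

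The other cell cycle lists moved the same way in this step. Of 81 further mitosis genes 63 were called lower (median -3.81), and of 51 DNA replication genes 47 (median -3.57), among them Tk1 (-7.22) and Cdc6 (-6.66). Of 30 G1 cyclins and E2F or MuvB regulators 20 were called lower, led by Ccnd2 (-6.88). Among 17 cell cycle inhibitors and quiescence genes 3 were called higher, Klf2 (1.90), Btg2 (1.73) and Btg1 (1.40), and 1 lower, Cdkn2c (-2.25). The early granulocyte markers moved with the mitosis genes: they summed to 62.4 to 68.9 over 6 genes in cMoP and 23.2 to 28.5 in inflammatory monocytes, with none at the floor on all arrays of a group. Their part in the result was not tested.

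In the corresponding step from SMP to SatM, 38 of 41 mitosis genes were called lower and 1 higher, where 14.0% and 12.8% of all genes tested were called. The median difference was -3.49, against -0.03 over all genes. The 38 covered 6 of 7 kinases and cyclins, 4 of 5 checkpoint genes, and every gene of the passenger complex, the kinetochore, the motors, chromosome structure and cytokinesis. Markers of other cells moved with this step. Basophil and mast cell markers summed over 12 genes to 139.1 to 144.0 in SMP and 32.8 to 35.8 in SatM, with 8 of the 12 at the floor on both SatM arrays. Monocyte markers summed over 11 genes to 58.6 to 64.9 in SMP and 112.3 to 112.9 in SatM. Early granulocyte markers summed to 43.7 to 50.7 in SMP and 21.5 to 26.4 in SatM, and the part of these lists in the result was not tested.

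Cdk1 had 9.33, 8.98, 8.06 and 9.50 in SMP and 3.58 and 2.62 in SatM, a fall of 6.06 ± 0.51 (adjusted p 1.37e-06). Ccnb2 had 8.67, 8.68, 7.20 and 7.85 in SMP and lay near the floor in SatM at 2.34 and 2.92, a fall of 6.02 ± 0.40 (adjusted p 1.55e-07). For both genes every SatM array lay below every SMP array by a wide margin. Nusap1 fell by 6.19 ± 0.53 (adjusted p 1.7e-06), from 9.79, 10.50, 9.24 and 9.38 to 2.81 and 4.96, so that its SatM arrays differed from each other by more than the SMP arrays did. Nuf2 fell by 5.95 ± 0.61 (adjusted p 8.57e-06), from 8.07, 9.12, 6.03 and 6.82 to 2.51 and 2.3. Prc1, which bundles microtubules of the central spindle, had 10.33, 9.89, 10.05 and 9.79 in SMP and 4.59 and 4.13 in SatM, and fell by 5.84 ± 0.32 (adjusted p 3.07e-08). Both groups were tight for Prc1.

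Plk1 and Kif4 were at the floor on both SatM arrays, which makes them at least 5.57-fold and at least 6.76-fold lower than in SMP. All 5 chromosome structure genes were called lower, with falls that ranged from 1.45 to 4.79. The condensin subunit Smc2 had 10.24, 9.90, 9.09 and 10.32 in SMP and 8.35 and 8.61 in SatM, a fall of 1.45 ± 0.49 (adjusted p 0.0409), and Smc4 fell by 1.73 ± 0.23, while Top2a fell by 4.79. Mki67 fell by 3.49 ± 0.36 and remained at 8.16 and 7.89 in SatM. Aurka, at 5.41, 3.54, 4.70 and 5.96 in SMP and 3.43 and 3.54 in SatM, was not called (-1.14, adjusted p 0.225), and neither was Bub3, whose fitted difference (-0.44) and plain difference (0.10) had opposite signs.

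Pttg1 was the member called higher. It had 10.49, 10.95, 9.23 and 10.74 in SMP and 11.92 and 12.21 in SatM, where both arrays lay above every progenitor array. The rise was 1.57 ± 0.41 (adjusted p 0.011). With the mean of the gene's 3 probe sets in place of the brightest it was 2.15. The call was lost without SatM array 2 (adjusted p 0.0817). The calls of 34 of the 39 members held with each array of the compared groups left out in turn, and those that did not were Pttg1, Aurkb (without SatM array 1), Ndc80, Kif20a and Smc2.

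Adding the panel's marrow SatM array to the 2 SatM arrays reduced the members called lower from 38 to 16. On that array 40 of 41 mitosis genes lay above both other marrow SatM arrays, where 23.0% of 18192 genes did, by a median of 3.92. Cdk1 was at 9.67, Ccnb2 at 8.50 and Prc1 at 10.36 there, close to the SMP levels, and Pttg1 at 11.06 was the member below both. Its 6 early granulocyte markers summed to 74.2, against 21.5 to 26.4 in the 2 other arrays and 43.7 to 50.7 in SMP. Stem and progenitor markers had a mean over 12 genes of 5.62 on that array, against 3.3 and 3.02 on the 2 other arrays. The part of these lists in the difference was not tested.

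The SMP and cMoP progenitors also differed from each other. All 41 mitosis genes had a negative fitted difference for SMP against cMoP, 16 were called lower and 0 higher, where 22.7% and 12.8% of all genes tested were called. The count of 16 of 41 is a larger share than the background, but the median difference of -0.92 was modest, and 16 of 41 had no overlap between the groups, where 18.7% of all genes were lower without overlap. At an unadjusted p under 0.05, limma gave 22 lower and 0 higher, but the share of all genes at that p is not given here.

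The largest differences were in mitotic kinases and the late motor Kif20a. Aurkb had 7.63, 5.95, 5.88 and 7.55 in SMP and 9.35, 9.62, 8.86 and 9.56 in cMoP, with no overlap, a difference of -2.60 ± 0.57 (adjusted p 0.00252). Kif20a, which carries the passenger complex to the central spindle, had 6.16, 3.90, 3.46 and 5.28 against 7.34, 7.20, 6.78 and 7.58, a difference of -2.52 ± 0.55 (adjusted p 0.00228). Aurka had 5.41, 3.54, 4.70 and 5.96 against 6.88, 6.98, 6.54 and 7.81 and differed by -2.15 ± 0.49 (adjusted p 0.00312). For all 3 genes the SMP arrays spread more than the cMoP arrays. Bub1 was tight in SMP, at 7.21, 7.17, 6.89 and 7.05 against 8.27 to 9.48 in cMoP, and differed by -1.89 ± 0.48 (adjusted p 0.00575). Anln, the scaffold of the cleavage furrow, had 6.12, 6.35, 5.58 and 6.56 against 8.24, 8.34, 6.46 and 7.96. The groups overlapped by 1 array, and the difference was -1.60 ± 0.34 (adjusted p 0.00215).

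Among the 25 members not called between these progenitors were Mki67, Top2a, Ube2c, Foxm1 and Plk1. Mki67 had 11.72, 11.12, 11.70 and 11.91 in SMP and 11.92, 11.85, 11.52 and 12.34 in cMoP, overlapping, with a difference of -0.29 ± 0.27 (adjusted p 0.416). Top2a differed by -0.42 ± 0.21 (adjusted p 0.137), with no overlap between the groups, and Ube2c by -0.65 ± 0.42 (adjusted p 0.235), while Foxm1 differed by -0.85 ± 0.38 (adjusted p 0.0846) and Plk1 by -0.71 ± 0.45 (adjusted p 0.227). A missed call does not show that their levels were equal. The 16 called members comprised 5 of 7 kinases and cyclins, 2 of 5 checkpoint genes, 2 of 4 passenger complex genes, 2 of 6 kinetochore genes, 2 of 8 motors, 2 of 5 chromosome structure genes, 1 of 2 cytokinesis genes and 0 of 3 anaphase genes.

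DNA replication genes were also lower in SMP: 47 of 51 were called lower and 1 higher, with a median of -2.44 and the largest differences in Tk1 (-4.56), Gins1 (-4.52), Timeless (-4.14) and Mcm10 (-3.62). Of the 81 further mitosis genes 35 were called lower and 1 higher, with a median of -1.01. Of the 30 G1 and E2F genes 12 were called lower, led by Ccnd1 (-3.25) and Mybl2 (-3.24), and 3 higher. The inhibitor list gave 6 higher, among them Foxo1 (3.08), Gadd45a (2.68) and Btg2 (1.80), and 1 lower, Klf4 (-5.00). The early granulocyte markers summed to 43.7 to 50.7 in SMP and 62.4 to 68.9 in cMoP. Other markers differed more. Basophil and mast cell markers summed over 12 genes to 139.1 to 144.0 in SMP and 35.8 to 37.9 in cMoP. Monocyte markers summed over 11 genes to 58.6 to 64.9 in SMP and 112.4 to 117.8 in cMoP. The part of these lists was not tested.

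The calls held for 10 of the 16 members with each array left out in turn. These were Ccnb2, Aurka, Aurkb, Bub1, Mad2l1, Birc5, Cenpa, Kif20a, Anln and Ncaph. Without cMoP array WT_2 the count fell to 10, and within the numbered arrays alone it was 8 and within the WT-titled arrays alone 6. The WT-titled progenitors themselves were lower than the numbered ones for 3 members and higher for 0, where 10.1% and 2.34% of all genes were called, with a median of -0.37 over members and -0.14 over all genes. The 3 were Nuf2 (-1.68, adjusted p 0.0264), Ccnb2 (-1.10, adjusted p 0.0251) and Bub3 (-1.09, adjusted p 0.000754). With its 5 probe sets averaged the Bub3 difference was 0.15, and its other 4 probe sets correlated with the one used at 0.14 to 0.47 over the arrays. The count was 1 without cMoP array 1 or SMP array 2, 2 without SMP array WT_1, and 0 without cMoP array WT_1.

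GMP and MDP, earlier progenitors with 1 array each, have no replicate check. MDP lay above all 4 cMoP arrays for 33 of 41 members and below them for 1 (Pttg1, 10.74), with a median difference of 0.80, and above all SMP arrays for 39. Its Mki67 was 12.92 and its Bub1 9.90, both above every array of cMoP and SMP. GMP lay within the cMoP range for 29 members, below it for 11 and above it for 1, and above all SMP arrays for 25. The shares of all genes outside these ranges are not given here, so the counts for MDP and GMP have no background.

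**Figure D3:**
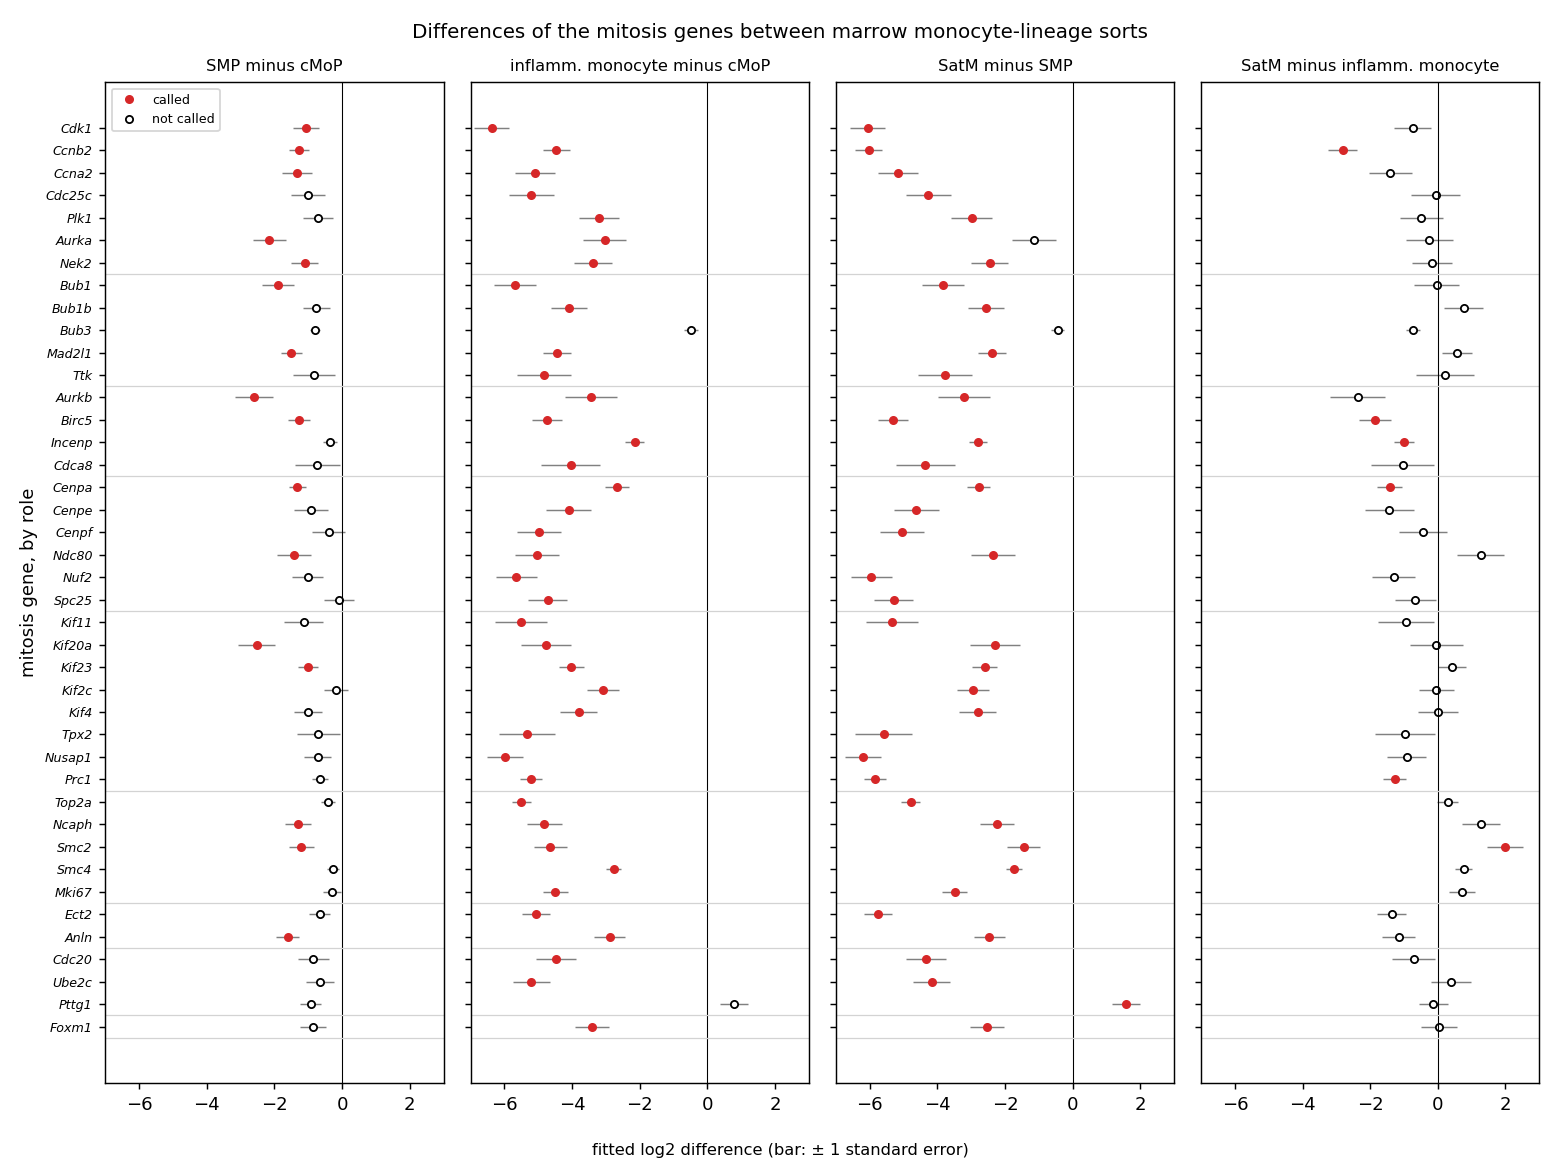
Fitted log2 difference (horizontal axis; bars are 1 standard error) of each of the 41 mitosis genes (vertical axis, by role) in the comparisons of marrow monocyte-lineage sorts, with red filled points for called genes. Nearly all points lie far to the left from progenitor to monocyte (medians -4.49 and -3.49), closer to 0 for SMP against cMoP (median -0.92), and on both sides of 0 for SatM against inflammatory monocytes (median -0.44).

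The monocyte types were then compared directly, SatM with inflammatory monocytes. Most mitosis genes were low in both, and few separated them: 5 of 41 were called lower in SatM and 1 higher, where 6.47% and 2.87% of all genes were called. The median difference was -0.44, against -0.02 over all genes. With 2 arrays a side, 19 members were lower and 6 higher without overlap, where 35.9% and 20.7% of all genes were.

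Ccnb2 differed most, at 2.34 and 2.92 in SatM and 5.92 and 4.97 in inflammatory monocytes, a difference of -2.81 ± 0.43 (adjusted p 0.000935). It is the call of the 6 that held with each array left out in turn, with adjusted p from 0.00205 to 0.017. Birc5, the survivin gene of the passenger complex, had 5.59 and 5.01 against 7.35 and 6.95 (-1.85 ± 0.47, adjusted p 0.0235). Cenpa had 6.09 and 4.87 against 7.05 and 6.75 (-1.42 ± 0.37, adjusted p 0.0297), Prc1 4.59 and 4.13 against 5.65 and 5.60 (-1.27 ± 0.34, adjusted p 0.0344), and Incenp 9.59 and 9.52 against 10.67 and 10.44 (-1 ± 0.29, adjusted p 0.0447). The groups did not overlap for any of these genes. Aurkb, at 2.34 and 4.93 against 6.01 and 5.98, was further apart on average but spread within SatM and was not called (-2.37 ± 0.81, adjusted p 0.0904).

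Smc2 was the member called higher in SatM, with 8.35 and 8.61 against 6.59 and 6.41. The difference was 1.98 ± 0.53 (adjusted p 0.0306). The other condensin members lay on the same side without being called: Smc4 had 9.73 and 8.87 against 8.57 and 8.51 (0.76, adjusted p 0.0768), and Ncaph 4.45 and 4.05 against 2.97 on both arrays (1.28, adjusted p 0.177). Without inflammatory monocyte array 1 or array 2, 1 member was called lower and 0 higher. Adding the panel's marrow SatM array left 0 lower, with Ccnb2 at -0.86 and not called, Birc5 at 0.18 and Prc1 at 0.73. Smc2 was still called higher with it (2.69). The Smc2 call was lost in each of the 4 omissions of an array (adjusted p 0.0844 to 0.171), with no filter on dim genes and with its probe sets averaged (0.94).

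The difference between the 2 steps, SMP to SatM against cMoP to inflammatory monocytes, was tested as an interaction. For 5 members the fall was smaller in the SatM step and for 1 it was larger, where 11.1% of all genes were called in each direction. The share of members with a smaller fall is close to that background, and the share with a larger fall is below it. The median of the 41 was 0.32, against 0 over all genes.

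The 5 were Smc2, Ncaph, Smc4, Mad2l1 and Ndc80. Smc2 fell by 4.64 to inflammatory monocytes and by 1.45 to SatM, an interaction of 3.19 ± 0.64 (adjusted p 0.00305), and it was the call that held with each of the 12 arrays left out in turn. Ncaph fell by 4.82 and 2.23 (interaction 2.58 ± 0.67, adjusted p 0.0139), and Smc4 by 2.77 and 1.73 (1.04 ± 0.31, adjusted p 0.0264). Mad2l1, the checkpoint inhibitor of the anaphase-promoting complex, fell by 4.45 and 2.38 (2.06 ± 0.54, adjusted p 0.0151), and Ndc80 by 5.03 and 2.34 (2.69 ± 0.85, adjusted p 0.0377). Ccnb2 went the other way, with falls of 4.47 and 6.02 (-1.55 ± 0.52, adjusted p 0.0495). Without inflammatory monocyte array 1 the counts were 1 and 0, without array 2 of that sort or SatM array 1 there were 2 higher, and without SMP array WT_1 or cMoP array WT_2 there were 3. The Ccnb2 call was lost in 9 of the 12 omissions, the Ndc80 call in 8, Smc4 in 5, Ncaph in 3 and Mad2l1 in 2. With the panel's marrow SatM array added, Ccnb2 was at 0.41. Of the DNA replication genes 33 of 51 had a smaller fall in the SatM step (median 2.22), led by Tk1 (5.68) and Hells (5.58), and 1 a larger one. Their mean level was 9.31 to 9.82 in cMoP, 7.15 to 7.66 in SMP, 5.95 and 5.88 in inflammatory monocytes and 6.11 and 6.02 in SatM.

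The spleen granulocyte sorts were compared next. Basophils carried the highest mean of any lineage group. Against neutrophils, 39 of 41 mitosis genes were called higher and 0 lower, where 21.9% and 15.6% of all genes were called, with a median difference of 3.87 against 0.01 over all genes. Aurkb had 9.07 and 9.33 in basophils and 3.27 and 4.75 in neutrophils (5.19 ± 0.81, adjusted p 0.000226). Kif11 had 10.38 and 10.78 against 4.64 and 6.75 (4.88 ± 0.83, adjusted p 0.000412). Ttk, the Mps1 kinase of the spindle checkpoint, had 8.50 and 8.82 against 2.89 and 4.73 (4.85 ± 0.86, adjusted p 0.000569). In each of these genes neutrophil array 2 lay above array 1, and both lay below the basophils. Bub1 was higher by 4.56 and Ndc80 by 4.50. Cdk1 had 10.90 and 11.19 against 6.20 and 7.83 (4.03 ± 0.55, adjusted p 7.06e-05), and Foxm1 6.25 and 7.11 against 2.53 and 3.03 (3.90 ± 0.53). Not called were Pttg1 (11.76 and 11.21 against 12.08 and 12.29, -0.70, adjusted p 0.234) and Kif23, a motor of the central spindle (10.11 and 10.39 against 9.24 and 9.57, 0.85, adjusted p 0.121). Calls of 37 of the 39 held with each array left out, the others being Cdca8, lost without neutrophil array 1 (adjusted p 0.0541), and Anln, lost in each of the 4 omissions.

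Eosinophils were also above neutrophils: 31 of 41 were called higher and 1 lower, where 23.1% and 17.4% of all genes were called, with a median of 2.55 against 0.02 over all genes. Bub1 had 8.76 and 9.10 in eosinophils against 4.02 and 6.21 in neutrophils (3.82 ± 0.67, adjusted p 0.000549). Kif2c, a microtubule depolymerase of the centromere, had 7.22 and 8.81 against 3.65 and 4.92 (3.73 ± 0.51, adjusted p 7.88e-05). Cdc20, the activator of the anaphase-promoting complex, had 9.50 and 10.61 against 5.53 and 7.64 (3.47 ± 0.63, adjusted p 0.000669). In all 3 the eosinophil arrays lay above both neutrophil arrays. Cdca8 was higher by 3.68 and Cenpe, the kinetochore motor, by 3.67.

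Members that departed from this were chosen after their values were seen. Kif23 was lower in eosinophils, at 7.98 and 7.75 against 9.24 and 9.57 (-1.54 ± 0.41, adjusted p 0.00784), a call lost without eosinophil array 2 or neutrophil array 2 (adjusted p up to 0.0569). Ccnb2 overlapped, at 7.30 and 6.55 against 6.63 and 7.37 (-0.08, adjusted p 0.981), and Foxm1 was dim in both, at 3.30 and 3.44 against 2.53 and 3.03 (0.59, adjusted p 0.422). Nusap1 (0.84), Cenpa (0.88), Kif11 (1.01), Anln (1.05), Kif4 (1.54), Kif20a (1.89) and Pttg1 (0.12) were also not called. By role, 5 of 5 checkpoint, 4 of 4 passenger complex and 5 of 5 chromosome structure genes were called higher, but 3 of 8 motors. Without neutrophil array 1, on which every member lay below array 2, 20 members were called higher, and 20 of the 32 calls held with each array left out.

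**Figure D4:**
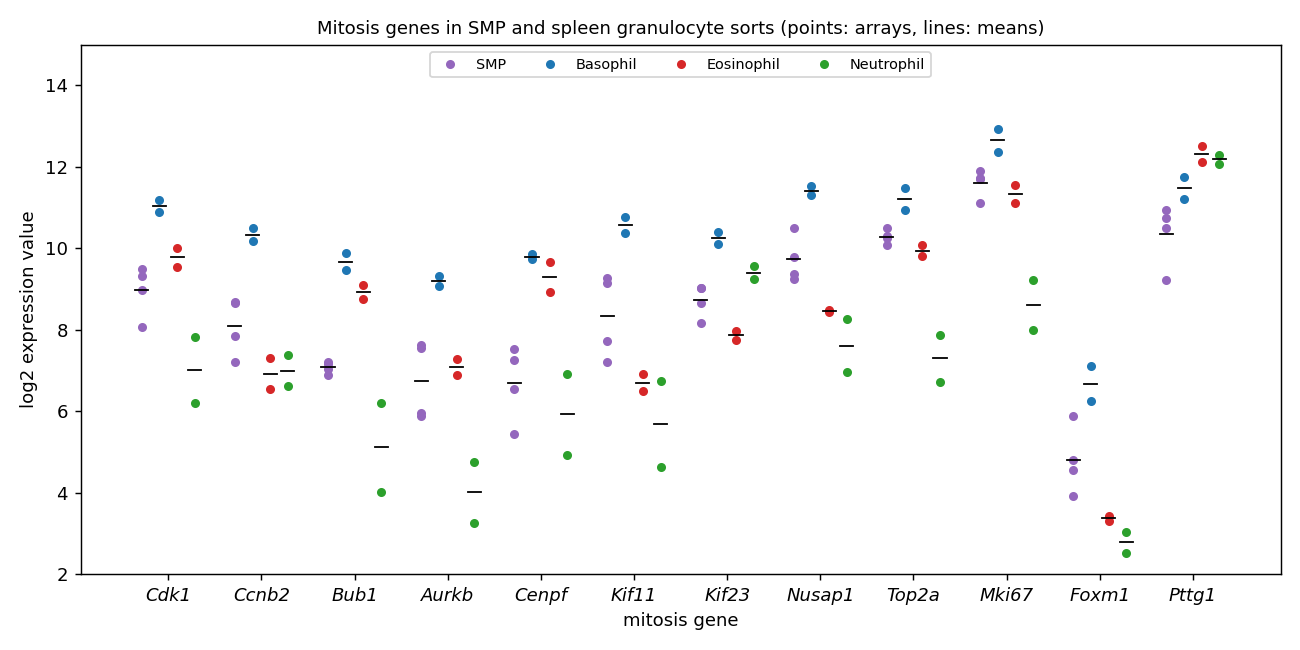
Level (log2 expression value, vertical axis) of selected mitosis genes (horizontal axis) on each array (points) of SMP and of the spleen basophil, eosinophil and neutrophil sorts, with group means as lines. Bub1 lies between 8.76 and 9.88 in basophils and eosinophils and at 4.02 and 6.21 in neutrophils, while Ccnb2 is at 10.17 and 10.49 in basophils and overlaps between eosinophils and neutrophils.

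Other cell cycle lists were higher in both sorts than in neutrophils. DNA replication genes gave 42 of 51 called higher in each comparison, with medians of 3.45 in basophils and 3.76 in eosinophils, and Mcm3 was higher by 6.41 and 7.42. Both comparisons share the neutrophil arrays. Early granulocyte markers moved with the mitosis genes. Over 6 genes they summed to 58.0 to 59.4 in basophils, 63.9 to 64.6 in eosinophils and 25.3 to 38.4 in neutrophils, and Mpo was at 12.50 and 13.31 in basophils, 12.66 and 12.44 in eosinophils and 2.83 and 7.45 in neutrophils. The sorts carried their own defining markers, with a mean of 11.69 and 11.62 for the basophil list in basophils, 12.25 and 11.73 for the eosinophil list in eosinophils and 13.97 and 13.82 for the neutrophil list in neutrophils. Stem and progenitor markers summed over 12 genes to 74.4 to 79.9 in basophils and 78.3 to 79.9 in eosinophils, against 48.9 to 51.7 in neutrophils and 63.7 to 77.9 in cMoP. The neutrophil list summed over 10 genes to 103.2 to 110.4 in basophils, 90.1 to 93.8 in eosinophils and 138.2 to 139.7 in neutrophils. Erythroid markers summed over 10 genes to 63.9 to 76.7 in basophils, 57.2 to 58.4 in eosinophils and 37.2 to 38.2 in neutrophils. The part of these markers in the result was not tested.

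Basophils were also set against SMP, which share the basophil markers. All 41 members had higher levels on both basophil arrays than on all 4 SMP arrays, where 17.8% of all genes did. By limma 9 were called higher and 0 lower, where 2.09% and 0.753% of all genes were called. At an unadjusted p under 0.05, 39 were higher, but the share of all genes at that p is not given here. The median difference was 1.72, against 0.02 over all genes. The 9 were Aurka (3.05), Anln (2.18), Kif2c (1.96), Cenpa (1.84), Ect2 (1.72), Ccnb2 (1.68), Bub3 (1.51), Prc1 (1.43) and Incenp (1.18). Aurka had 7.43 and 7.92 in basophils against 5.41, 3.54, 4.70 and 5.96 (adjusted p 0.0278). Bub3 had 12.16 and 12.10 against 10.52, 10.65, 9.53 and 9.61 (adjusted p 0.00288), and its call was the one that held with each array left out, but not with its probe sets averaged (1.15, adjusted p 0.0676). The count was 3 without SMP array 2, 2 without basophil array 1 and 1 without basophil array 2. It was 24 without the term for the WT-titled arrays and 0 in a fit of these groups alone. Tissue and cell type cannot be told apart here, since SMP came from marrow and basophils from spleen. Early granulocyte markers summed to 58.0 to 59.4 in basophils and 43.7 to 50.7 in SMP. Erythroid markers summed over 10 genes to 63.9 to 76.7 in basophils and 49.1 to 60.1 in SMP. The part of these 2 lists was not tested.

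The panel was fitted separately with sort and tissue terms over 15 arrays and 11734 genes. Against SatM, limma called 0 of 41 members in either direction for marker-negative cells, where 5.28% of all genes tested were called higher and 4.94% lower. It called 0 for other Ly6C-negative monocytes (0.0597% and 0.00852%), for Msr1-dull Ceacam1-dull cells (0.102% and 0.153%), for M2-like macrophages (5.39% and 2.92%) and for lung macrophages (0.128% and 0.111%). At an unadjusted p under 0.05 there were 0 higher and 1 lower for marker-negative cells, 0 and 1 for other Ly6C-negative monocytes, 4 and 0 for Msr1-dull Ceacam1-dull cells, 1 and 3 for M2-like macrophages and 1 and 0 for lung macrophages. The share of all genes at that unadjusted p is not given here. Medians over the 41 were -0.44, -1.01, 1.14, -0.94 and 1.29. Without the marrow SatM array, 0 members were called in each of these 5 comparisons as well. A few omissions gave calls: 5 higher and 0 lower for marker-negative cells without their marrow array, 1 lower for marker-negative cells without their spleen array, 1 lower for M2-like macrophages without their marrow array, 4 higher for Msr1-dull Ceacam1-dull cells without their lung array or without the lung SatM array, and 4 higher for lung macrophages without the lung SatM array.

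Within several panel sorts the members' levels differed widely by tissue. Other Ly6C-negative monocytes differed less between spleen and blood, with a median of 0.19. In spleen 10 members were higher and 1 lower by at least 1, where 4.1% and 3.8% of all genes were. In SatM, 40 of 41 members were higher by at least 1 in marrow than in spleen, where 8.2% of all genes were, with a median of 3.90. Cdk1 was at 9.67 in marrow, 6.78 in lung, 5.35 in spleen and 2.3, the floor, in blood. Mki67 was at 11.51, 8.98, 9.62 and 8.41, and Top2a at 10.31, 8.42, 6.84 and 3.60. Lung SatM lay between marrow and the rest for Cdk1 and Top2a, and below spleen for Mki67. Over the members, 37 were higher by at least 1 in marrow than in lung (median 2.01, 8.5% of all genes). By the same margin, 28 were higher in lung than in spleen (median 1.67, 17.2% of all genes). Lung was higher than blood by at least 1 for 31 members (median 3.02, 16% of all genes). With 1 array per sort and tissue these differences have no replicate check. The marrow differences of SatM rest on the panel array that stood apart: on the 2 marrow SatM arrays of the lineage set the members' mean was 4.61 and 4.80, below SatM of spleen (5.04) and lung (6.68), and Cdk1 was at 3.58 and 2.62.

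The Msr1-dull Ceacam1-dull sort was higher by at least 1 in marrow than in lung for 40 members (median 3.46, 14.2% of all genes). M2-like macrophages were higher by at least 1 in marrow than in spleen for 36 members (median 3.54, 12% of all genes). Marker-negative cells did not show this. Here 0 members were higher and 4 lower by at least 1 in marrow than in spleen, where 5.6% and 7.3% of all genes were. The median was 0.00, and Cdk1 was at 6.61 in both tissues. Their blood array was lower, with 25 members higher by at least 1 in marrow (median 1.26), where 5.4% of all genes were. In lung macrophages the members' mean was 7.39 and 7.30, above lung SatM (6.68) and the lung Msr1-dull Ceacam1-dull array (6.35), with Cdk1 at 8.49 and 8.25 against 6.78 and 6.53.

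Tissue terms of the panel fit were added after these values had been seen. Marrow against blood gave a median of 3.64 over the members and marrow against spleen 2.83, against 0.04 and 0.11 over all genes. By limma 0 of 41 were called in either. Of all genes, 0.0767% and 0.0682% were higher by that rule and 0.0256% lower in each. At an unadjusted p under 0.05, 38 and 36 members were higher. The share of all genes at that unadjusted p is not given here, so these member counts have no background. Without the marrow marker-negative array, 31 and 27 members were called higher, with medians of 4.93 and 4.17. The share of all genes called in that reduced fit is not given here, so these counts have no background. Without the marrow SatM array the medians were 3.28 and 2.55, with 0 members called. The early granulocyte markers moved with the marrow arrays that were high. Their mean over 6 genes was 12.37 in marrow SatM, 12.60 in the marrow Msr1-dull Ceacam1-dull array and 9.44 in marrow M2-like macrophages, against 3.24 in marrow marker-negative cells, 6.57 in spleen SatM, 2.73 in blood SatM and 2.45 to 2.52 on the 4 lung arrays. Other marker lists also differed. Erythroid markers had a mean over 10 genes of 8.09 in marrow and 4.63 in spleen M2-like macrophages. They were also higher in marrow (6.03) than in spleen (4.08) marker-negative cells, where no member was higher by at least 1. Stem and progenitor markers had a mean over 12 genes of 7.35 and 3.84 in marrow and spleen M2-like macrophages. In SatM they were at 5.62 and 3.5, and in marker-negative cells at 5.12 and 6.02. The part of these lists in the marrow differences was not tested. Elane was at the floor on all 4 lung arrays, which include 2 of resident macrophages. Their members' means were 6.35 to 7.39, and those of SatM in spleen and blood were 5.04 and 3.84. That comparison mixes sort and tissue, and no cause was tested.

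**Figure D5:**
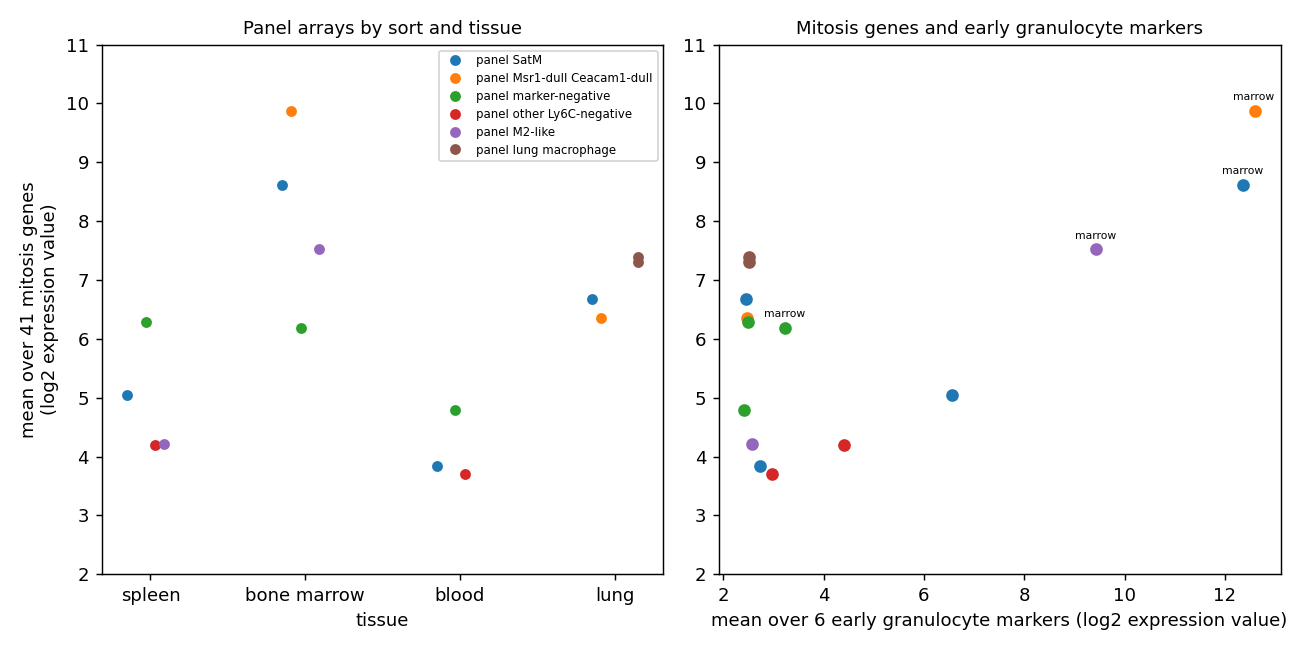
Mean level over the 41 mitosis genes (log2 expression value, vertical axes) on the 15 panel arrays, by tissue (left) and against the mean level of 6 early granulocyte markers (right, log2 expression value), with colour giving the sort and marrow arrays marked on the right. Marrow arrays of SatM and of Msr1-dull Ceacam1-dull cells are high on both measures (8.61 and 9.87, with marker means of 12.37 and 12.60), while the 4 lung arrays reach 6.35 to 7.39 with marker means of 2.45 to 2.52.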

How the data were processed

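The authors' deposited table holds 1 value per probe set and array, 45101 probe sets on 35 Affymetrix arrays hybridised with total RNA, per the labels' protocols. The values are read as log2 expression values from their range of 2.3 to 16.02, and the summarisation and normalisation method is not given in the sources used here. If the authors scaled the arrays to each other, a shift shared by all genes of a sort would not be seen in the deposited log2 values. Probe sets were named from the platform annotation: 34945 carried 1 gene symbol, 932 several, 9160 none and 64 were controls, and 34741 matched a current gene by Entrez identifier. A gene's brightest probe set, by the mean across all 35 arrays, stood for it, giving 18193 genes. Of the 41 measured members 29 had several probe sets.

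Genes above the array median on at least 2 arrays of a fit were tested with limma 3.58.1 in R 4.3.3 (eBayes with trend), in a fit of the 20 lineage arrays with a term for the WT-titled progenitors (12077 genes, 10 residual degrees of freedom) and a fit of the 15 panel arrays with sort and tissue (11734 genes, 6 residual degrees of freedom). Calls needed a p under 0.05 after Benjamini-Hochberg adjustment over the fit's genes, and a log2 difference of 1 or more in either direction. At a floor value, fold differences are lower bounds against 2.3. Motifs were counted in RefSeq windows of GRCm38.p6. Other steps ran in Python 3.11.15 with pandas 2.3.3, numpy 2.4.6, matplotlib 3.10.9 and scipy 1.17.1. The fit was tested on simulated data.

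Arrays were grouped by their titles and cell type labels. Values per array are given for called members among a comparison's 5 largest differences and for Cdk1, Plk1, Aurkb, Bub1, Cenpa, Ndc80, Top2a, Ube2c, Mki67 and Foxm1, while Pttg1, Bub3, Kif23, the condensin genes and other exceptions were chosen after their values were seen. Other genes are the 15 best correlated with the members' mean and up to 4 called members of each further list by size. The members and lists were chosen with earlier results of these data known. Alternatives were quantile normalisation, dropping the filter on dim genes or raising it to the 60th percentile, averaging the probe sets of each gene, eBayes without trend or with robust estimation, a replicate block, no term for the WT-titled arrays, no fold threshold, fits of the compared groups or of either progenitor set alone, no tissue term, and leaving out each array. The deviations of same-numbered arrays correlated between -0.05 and 0.23.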

Additional observations from a re-analysis of the deposited data

Results flagged for a closer look

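A level was listed here when the highest or lowest array of a group of 4 lay far from the nearest of the others by Dixon's criterion. Chance alone gives about 1 such case in 20 groups, and 6 were found over 123 tests of a gene in a group, which is about that rate. The 4 arrays of panel SatM are of different tissues and are not replicates. In cMoP array WT_1, Cdk1 was at 9.43 while the other 3 arrays lay between 10.20 and 10.24, Mad2l1 was at 9.04 against 9.77 to 9.92, and Cenpf was at 5.37 against 7.51 to 7.83. In cMoP array WT_2, Smc2 was at 11.42 against 10.97 to 11.04. Ndc80 was at 6.82 on SMP array 1 against 4.89 to 5.21 on the other SMP arrays, and at 5.84 on the marrow SatM array of the panel against 2.67 to 2.91 in the other tissues.

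The step from progenitor to mature cell differed between the SatM pair and the inflammatory monocyte pair for 6 members by the interaction test of limma, 5 in one direction and 1 in the other, where 11.1% of all genes were called in each direction. The differences between the steps were 3.19 for Smc2, 2.69 for Ndc80, 2.58 for Ncaph, 2.06 for Mad2l1, 1.04 for Smc4 and -1.55 for Ccnb2. The Smc2 call held with each of 12 arrays left out in turn, with adjusted p from 0.0029 to 0.0185. The others were lost in 9 (Ccnb2), 8 (Ndc80), 5 (Smc4), 3 (Ncaph) and 2 (Mad2l1) of the 12.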

How the results depend on the processing

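Over all alternatives, 476 counts stayed within 1.5 times their main value and 62 moved; of single genes' differences, 5285 kept direction and side of the threshold, 308 fell short of it, 56 newly passed it, 90 moved and 4 reversed. The cause of these changes was not tested. Shares of all genes called belong to the main fits only. Member counts from alternative fits or at unadjusted p have no such share beside them. Members lower in SMP than in cMoP numbered 6 with the WT-titled and 8 with the numbered progenitors alone, and 10 to 17 with each array left out. For SatM against inflammatory monocytes, the higher count was 0 with no filter, 0 with probe sets averaged, 2 with the compared groups alone and 0 to 1 with arrays left out. The lower count was 1 with quantile normalisation, 2 with no filter, with probe sets averaged or without the WT term, and 1 to 6 with arrays left out. For SatM against SMP, 0 were higher with the compared groups alone, and 0 to 1 were higher and 34 to 38 lower with arrays left out. For inflammatory monocytes against cMoP 1 was higher with the numbered progenitors alone, and 37 to 39 were lower with arrays left out. In the interaction, the lower count was 0 with quantile normalisation, with no filter and without the WT term, and arrays left out gave 1 to 6 higher and 0 to 1 lower. For basophils against SMP the higher count was 3 with no filter, 24 without the WT term, 0 with the compared groups alone and 1 to 11 with arrays left out. Against neutrophils, 1 member (Pttg1) was lower in basophils with probe sets averaged, and arrays left out gave 37 to 38 higher in basophils and 20 to 32 higher and 0 to 1 lower in eosinophils. The WT-titled term gave 1 lower with quantile normalisation, 0 to 4 with arrays left out, and Bub3 at 0.15 with its probe sets averaged. In the panel, arrays left out gave 0 to 5 higher and 0 to 1 lower for marker-negative cells, 0 to 4 higher for Msr1-dull Ceacam1-dull cells, 0 to 1 lower for M2-like macrophages, 0 to 4 higher for lung macrophages, and 0 to 31 and 0 to 27 higher for marrow against blood and spleen. Chosen after seeing the data, the addition of the panel's marrow SatM array gave 0 lower against inflammatory monocytes, 16 lower against SMP and 0 lower in the interaction, with Birc5 at 0.18, Prc1 at 0.73 and Ccnb2 at 0.41 in place of negative differences. Same-numbered arrays share only a number, and a replicate block gave 8 higher and 0 lower in the interaction and 0 higher for basophils against SMP. Levels near the floor limit differences to bounds.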

Other observations

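Few genes of the further cell cycle lists separated SatM from inflammatory monocytes, where 2.87% of all genes were called higher and 6.47% lower. Of 51 DNA replication genes 4 were called higher and 2 lower (median 0.06), of 81 further mitosis genes 4 and 3 (median 0.00), and of 30 G1 and E2F genes 1 and 1. Cdc7, a kinase that fires replication origins, was higher in SatM by 3.71 ± 0.46 (adjusted p 0.000193, limma), and so were Hells (2.14, adjusted p 0.00708) and the cyclin Ccnd2 (4.60, adjusted p 0.000151). Timeless, of the replication list, was lower (-2.02, adjusted p 0.0026). E2f8, a repressor of E2F targets, was lower (-3.79 ± 0.27, adjusted p 1.38e-06), and Racgap1, a partner of Kif23 at the central spindle, was lower as well (-2.77, adjusted p 0.00516), while the condensin gene Ncaph2 was higher (1.80 ± 0.33, adjusted p 0.00333). Klf2, a quiescence factor of leukocytes, was higher (2.09, adjusted p 0.00219).

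Against neutrophils, basophils and eosinophils were both higher for Bora, an activator of Aurora A and Plk1 (5.63 and 4.81), for Cdk4 (5.19 and 5.24) and for the inhibitor Cdkn1a (3.84 and 2.83), and lower for the stress gene Gadd45b (-3.55 and -3.93). Both comparisons share the neutrophil arrays.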
